A study of Mus musculus with 6 samples.

Results

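The Hox genes encode transcription factors with a homeodomain, the DNA-binding fold, and mark position along the body. In mammals they lie in 4 clusters, HoxA, HoxB, HoxC and HoxD, and genes at matching places of the clusters form paralog groups numbered 1 to 13. Groups with low numbers are active from the head end of the trunk onward, and groups with high numbers are added toward the tail and in the distal limb. The sciatic nerve leaves the spinal cord at lumbar and sacral levels and runs into the hindlimb, and the connective tissue and Schwann cells (SCs) of a nerve keep a record of their level of origin as a Hox code. The genes described here are those in all rows of the deposited expression table with a symbol made of Hox, a cluster letter and a number. This rule gave 37 rows with 39 symbols among 59485 rows, 35979 of which carry no symbol. In mm10 coordinates, the 11 HoxA rows lie on the minus strand of chromosome 6. The 9 HoxB rows lie on chromosome 11 from 96194316 to 96368253, the 9 HoxC rows on chromosome 15 from 102921103 to 103036852 and the 8 HoxD rows on chromosome 2 from 74668300 to 74765143, all on the plus strand. Of these rows, 2 hold neighbors that the table counts together, *Hoxb8 // Hoxb7* and *Hoxd3 // Hoxd4*.

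RNA was taken from sciatic nerves at postnatal day 4 (P4) of 3 control animals, labelled wild-type, and of 3 mutant animals, labelled *Ht-PA-Cre; Adar1fl/fl;R26R*. The human tissue plasminogen promoter drives Cre recombinase in neural crest (NC) cells, where it ablates the floxed alleles of *Adar1*, the gene of an RNA-editing enzyme that is called *Adar* in the table. R26R is a YFP tracer of the same cells, and cells of the nerve from other origins keep *Adar1*. Each animal gave 1 library, and all values below are read counts divided by a size factor of the library, called normalized read counts.

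The libraries held 50938349 to 78250094 reads on genes. *Adar* had normalized read counts of 1602, 2066 and 1133 in the control-labelled libraries and of 11768, 9311 and 9773 in the mutant-labelled ones (log2 fold change 2.72, adjusted p = 4.1e-05), a direction opposite to the deletion in the labels. The table has 1 value per gene and does not separate the deleted segment from the rest. The *Adar* values therefore cannot check the labels, which every direction below follows. By quantitative PCR at P4, the paper found genes of late SC differentiation reduced in mutant sciatic nerves, the direction of the SC marker sums below. Of 9 SC markers, all detected, 5 were lower in the mutant-labelled libraries (at the threshold given below, 10.4% of all tested genes were lower and 13.9% higher), and *Sox10*, the SC lineage factor, was at -0.71 on the log2 scale, not past the threshold. SC marker sums were 1137790 to 1505810 against 58050 to 214094. Fibroblast marker sums were 1934408 to 2180487 against 789553 to 1190634, without overlap, and of 11 such markers 1 was higher and 2 were lower, 1 of which (*Col1a2*) was not past the threshold in edgeR and DESeq2. The collagen genes *Col1a1* and *Col1a2* made up 90.9 to 97.1% of these sums. The other 9 summed to 56933 to 83923 against 61996 to 76681, which overlapped, and the median log2 fold change of the 11 was 0.08. Of 10 skeletal muscle markers, 8 were higher, with summed values of 7022 to 36015 in the control-labelled and 46775 to 348556 in the mutant-labelled libraries. Of 6 neuron markers, 3 were higher (2 of the 5 with a mean of at least 10 in the controls), with sums of 1834 to 2164 against 4518 to 4953. Red blood cell markers had sums of 54935 to 76999 against 5133 to 15724, and 5 of 6 were lower. Cartilage and bone markers had sums of 10253 to 13847 against 801 to 1065 (2 of 6 tested lower, 1 higher), and macrophage markers of 10754 to 14038 against 5160 to 6990 (3 of 7 lower, 2 higher). Of 6 perineurial markers 1 was higher and 1 lower, and their sums overlapped. T and NK cell markers had sums of 17.7 to 35 against 247 to 528 and keratinocyte markers of 207 to 253 against 265 to 346, but 5 of 6 and 4 of 5 of them were tested only because of their mutant-labelled values. The vessel and adipocyte lists are given with HoxA below, and no marker of the 13 lists was at 0 in all libraries. In bulk RNA from a whole nerve, fewer cells of a type and less RNA per cell cannot be told apart, and the part of these cell mixtures in the Hox values was not tested.

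The 2 kinds of sequence printed here show how alike these genes are and where the results fall. The first is the stretch of 27 bases that codes for part of the third helix of the homeodomain, the helix that contacts DNA. It is shown for paralog groups 2 and 9, the groups of *Hoxb2* and *Hoxb9*, which had the smallest p-values of all Hox genes below, with capitals at the bases that are not shared by all members of the group (GENCODE M21 transcripts, GRCm38).
*Hoxb9*, plus strand of chr11:96274800-96274826: tggttTcagaaccgGCggatgaaAatg
*Hoxc9*, plus strand of chr15:102984071-102984097: tggttTcagaaccgGAggatgaaGatg
*Hoxa9*, minus strand of chr6:52224280-52224306: tggttCcagaaccgCAggatgaaAatg
*Hoxd9*, plus strand of chr2:74699356-74699382: tggttCcagaaccgTAggatgaaAatg
*Hoxb2*, plus strand of chr11:96353126-96353152: tggttCcagaaccgACgCatgaaAcaC
*Hoxa2*, minus strand of chr6:52163423-52163449: tggttTcagaaccgGAgAatgaaGcaT
All 6 stretches lie in the coding part of an exon. The group 9 members differ among themselves at 4 of the 27 positions and the group 2 members at 6. Over the whole homeobox of 180 bases, members of 1 paralog group were 67.2 to 93.9% identical in sequence (42 pairs), and members of different groups 46.1 to 88.9% (699 pairs). The longest exact run shared by the transcripts of any 2 of the 39 genes was 52 bases, between *Hoxa6* and *Hoxb4*, and *Hoxb9* and *Hoxc9* shared 50. Reads of 130 bases from each end are longer than these runs. Only exact runs were measured, and whether reads with mismatches were assigned to the wrong paralog was not tested.

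The second kind is 4 of the microRNAs encoded between the Hox genes, those of the miR-196 and miR-10 families in HoxA, HoxB and HoxD, printed because several transcripts described below overlap or neighbor them. The seed, bases 2 to 8, is in capitals (RefSeq, GRCm38.p6).
miR-196a-5p, plus strand of chr11:96265187-96265208 upstream of *Hoxb9*: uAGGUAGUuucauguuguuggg
miR-196b-5p, minus strand of chr6:52230129-52230150 between *Hoxa9* and *Hoxa10*: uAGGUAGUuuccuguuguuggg
miR-10a-5p, plus strand of chr11:96317186-96317208 upstream of *Hoxb4*: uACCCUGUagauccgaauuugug
miR-10b-5p, plus strand of chr2:74726074-74726096 in the *Hoxd3 // Hoxd4* span: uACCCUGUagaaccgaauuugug
The 4 form 2 seed families with 2 members each. Libraries of the poly-A fraction do not measure mature microRNAs, so no level is given for them. The rows of their hairpins in the table count poly-A reads over those loci, and neither of the 2 that were tested, *Mir196a-1* (log2 fold change 1.45) and *Mir196b* (-0.48), passed the threshold defined below.

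In the control-labelled nerves, Hox expression was highest in groups 4, 6, 8, 9 and 10 and lowest toward both ends of the clusters. Levels were compared between genes as normalized read count per kb of exon, with exon lengths from GENCODE M21, because the counted segments are not listed in the table. Paralog group sums were 850 ± 60 in group 9, 850 ± 59.1 in group 6, 811 ± 128 in group 10, 741 ± 64.1 in group 8 and 601 ± 41.8 in group 4 (SD, n = 3), without the joint rows. Groups 9, 6 and 10 overlapped in their libraries and have no order among them, and group 8 overlapped with group 10. Group 4 lay below all of these. Group 5 followed with 305 ± 16.2 per kb, group 11 with 262 ± 43.5, group 2 with 250 ± 29.6 and group 7 with 165 ± 20.2. Groups 3 (51.1 ± 7.1), 13 (6.3 ± 3.97) and 12 (1.44 ± 2.49) were lower. Groups 11 and 2 overlapped, as did groups 13 and 12. By single gene, *Hoxc6* stood highest at 627 ± 67 per kb, and *Hoxc10* (583 ± 48.6) and *Hoxd8* (570 ± 49.4) overlapped with it. *Hoxc4* (533 ± 35.2) overlapped with *Hoxc10* and *Hoxd8*, and *Hoxb9* (388 ± 65.4) came next. HoxC held 37.4% ± 0.61 of the summed normalized read count of all Hox rows, HoxB 27.5% ± 4.33, HoxD 20% ± 2.19 and HoxA 15% ± 2.45.

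**Figure D1:**
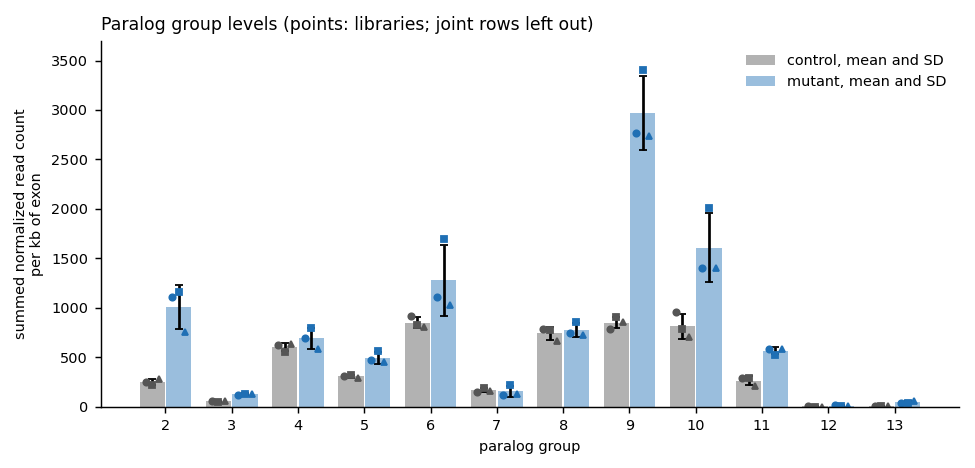
Summed normalized read count per kb of exon for paralog groups 2 to 13, with the joint rows left out. Bars and error bars give the mean and SD of 3 control-labelled (gray) and 3 mutant-labelled (blue) libraries and points the libraries. Group 9 went from 850 to 2973 and group 2 from 250 to 1009, while group 8 was at 741 and 776.

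The mutant-labelled libraries were compared with the control-labelled ones to see whether this code differed. The summed normalized read count of the 37 Hox rows was 12717, 12098 and 11643 in the control-labelled libraries and 21990, 27791 and 20733 in the mutant-labelled libraries, 1.93 times as high on average. All 3 mutant-labelled sums lay above all control-labelled sums. limma was fitted to log2(value + 1) for the 25802 rows whose mean reached 10 in a genotype, and fold changes are given on this scale. The added 1 draws the values of weakly expressed genes together, and as means of logarithms are compared, such a fold change can lie on either side of the ratio of the mean counts. Of the 32 Hox rows tested, 13 passed the threshold (unadjusted p at or under 0.05 and at least a 2-fold change) as higher, against 13.9% of all tested genes, and 0 passed as lower, against 10.4%. An adjusted p at or under 0.05 was reached by 10 of the 13 (11.5% of all tested genes). The edgeR and DESeq2 fits to the recovered reads called 12 and 13 rows higher and 0 lower, and with limma 0 rows were lower at an unadjusted p under 0.05. The median log2 fold change was 0.94 for the 32 Hox rows and 0.03 for all tested genes. *Hoxd13*, *Hoxd11* and *Hoxd1* entered the test only because of their mutant-labelled values. Among the 29 Hox rows with a mean of at least 10 in the controls, 10 were higher, against 10.1% of all genes so chosen. In 20 Hox rows all mutant-labelled values lay above all control-labelled ones (25.9% of all genes), in 1 row, *Hoxd8*, all lay below (23.3%), and 11 rows overlapped. With 3 animals against 3, an exact permutation test of a single gene cannot give a p below 0.1.

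**Figure D2:**
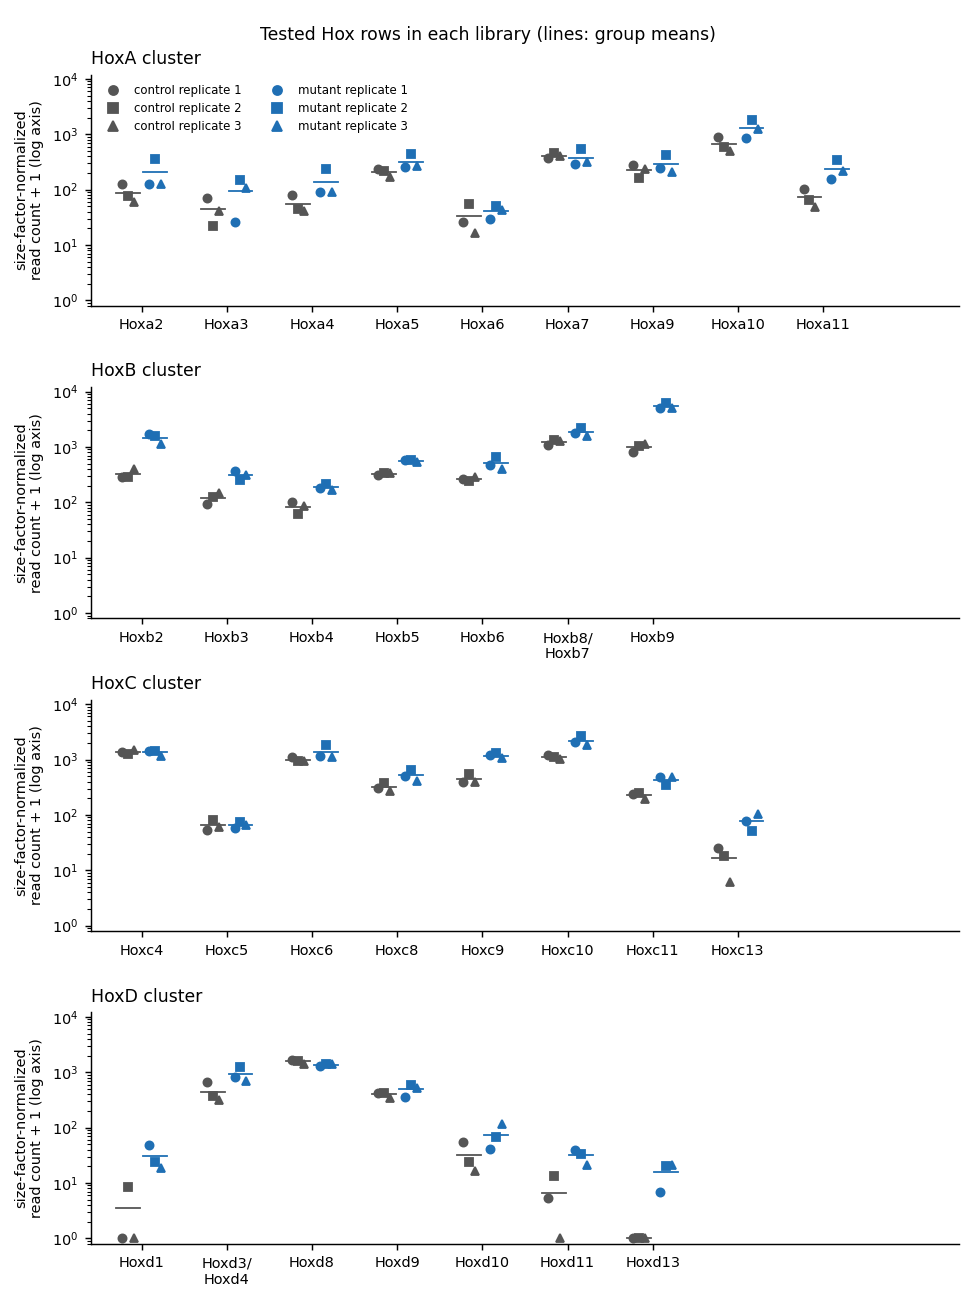
Normalized read count plus 1 (log axis) of tested Hox rows by cluster. Points are the 3 control-labelled (gray) and 3 mutant-labelled (blue) libraries, with 1 symbol per replicate number, and short lines are group means. All 7 tested HoxB rows have their mutant-labelled points above their control-labelled points, and mutant replicate 2 (blue square) is the highest mutant-labelled point in every HoxA row drawn.

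*Hoxb9* (GSMG0005824, chromosome 11, 96271330 to 96276591), a member of the posterior trunk group 9, had the most distinct change. Its normalized read counts were 816, 1027 and 1148 in the control-labelled libraries and 5083, 6155 and 4969 in the mutant-labelled libraries. The lowest mutant-labelled value was far above the highest control-labelled value, and the log2 fold change was 2.44 (SE 0.15, adjusted p = 1.6e-05). *Hoxb9* made up 8.26% ± 1.73 of all Hox counts in the control-labelled and 23.1% ± 0.91 in the mutant-labelled libraries. Without *Hoxb9* the summed Hox count was still 1.62 times as high in the mutant-labelled libraries (11156 ± 707 against 18102 ± 3113).

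The other genes of group 9 did not move alike, although the printed stretch differs between them at few bases. *Hoxc9*, the HoxC member, had counts of 385, 547 and 388 against 1186, 1297 and 1069. These did not overlap, and the log2 fold change was 1.44 (SE 0.18, adjusted p = 0.000469). *Hoxa9* (282, 159 and 234 against 243, 421 and 211) and *Hoxd9* (428, 429 and 337 against 363, 595 and 524) overlapped between genotypes. Their log2 fold changes were 0.34 (SE 0.32) and 0.29 (SE 0.22), neither past the threshold. *Hoxb9* made up 48.2% ± 5.92 of the group 9 count in the control-labelled and 73.3% ± 0.63 in the mutant-labelled libraries.

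Higher-numbered genes, which belong to the lumbosacral region and the distal limb, were partly past the threshold. *Hoxa11*, which takes part in patterning the middle segment of the limb, had counts of 103, 64.3 and 46.9 against 156, 349 and 212 (log2 fold change 1.72, SE 0.41, adjusted p = 0.0119). *Hoxc13*, known for its role in hair and nails, had counts of 24.4, 17 and 5.07 against 75.6, 50.2 and 103 (2.4, SE 0.64, adjusted p = 0.02). Both genes were separated between the genotypes. *Hoxd13*, the gene of the digits, had 0 reads in each control-labelled library and 8, 20 and 20 reads in the mutant-labelled libraries, which makes it at least 4.5-fold higher when the controls are set to the floor of 3 reads per library (adjusted p = 0.0138). *Hoxd11* had normalized counts of 4.44, 12.3 and 0 against 38.6, 32.8 and 19.8 (2.86, SE 0.99, unadjusted p = 0.0196, adjusted p = 0.0544), and was not past the threshold in edgeR, at a pseudocount of 0.1 or without mutant replicate 1 or 2. These 2 HoxD genes remained near the lower limit of detection in all libraries, and the floor covers counting error alone, because amplified reads that carry no molecular identifier cannot be taken as separate molecules.

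The group 10 and 11 genes with high levels, which specify lumbar identity and the hindlimb, missed the fold limit by little. *Hoxc10* had counts of 1207, 1113 and 1021 against 2109, 2657 and 1811, with a log2 fold change of 0.96 (SE 0.16, adjusted p = 0.00193). *Hoxa10* had a log2 fold change of 0.97 (SE 0.30, adjusted p = 0.0365) and *Hoxc11* of 0.92 (SE 0.22, adjusted p = 0.0116). The values of *Hoxc10* and *Hoxc11* were separated between genotypes, and those of *Hoxa10* overlapped (909, 578 and 497 against 873, 1831 and 1231). *Hoxd10*, at 54.4, 22.7 and 15.2 against 40, 67.5 and 114, overlapped as well (1.31, SE 0.60, adjusted p = 0.128).

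At the opposite end of the clusters, groups 1 to 4, which pattern the hindbrain and neck, held 7 rows past the threshold among the 10 tested, against 0 of 10 in groups 5 to 8 and 6 of 12 in groups 9 to 13 (13.9% of all tested genes were higher). Without *Hoxd1*, *Hoxd11* and *Hoxd13*, which entered through their mutant-labelled values alone, these counts were 6 of 9, 0 of 10 and 4 of 10 (10.1% of all genes so chosen). In groups 5 to 8, limma gave 4 rows a higher value at an unadjusted p under 0.05 but under 2-fold, and edgeR and DESeq2 also placed 0 past the threshold. *Hoxb2*, a hindbrain gene, had counts of 288, 290 and 402 in the control-labelled and 1692, 1559 and 1111 in the mutant-labelled libraries. The groups were far apart, with a log2 fold change of 2.15 (SE 0.21, adjusted p = 0.000143). Its paralog *Hoxa2*, which sets the identity of the second pharyngeal arch, had counts of 125, 76.5 and 59.6 against 127, 360 and 127. The change of *Hoxa2* was 1.10 on the log2 scale (SE 0.47, unadjusted p = 0.047, adjusted p = 0.106), and control replicate 1 lay next to mutant replicates 1 and 3. Without mutant replicate 2 the change of *Hoxa2* was 0.61 and no longer past the threshold, and the call was also lost without control replicate 2 or 3, at a pseudocount of 0.1, with the libraries scaled to the same 75th percentile and with eBayes without trend.

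*Hoxb3* and *Hoxb4*, the next genes of the HoxB cluster, were higher as well. *Hoxb3* had counts of 93.3, 124 and 144 against 361, 255 and 307 (log2 fold change 1.35, SE 0.26, adjusted p = 0.00456). *Hoxb4* had 98.8, 61.4 and 86.2 against 177, 217 and 168 (1.2, SE 0.29, adjusted p = 0.0137). Neither gene overlapped between the genotypes. The joint row *Hoxd3 // Hoxd4* had 653, 369 and 309 against 804, 1268 and 679, which was separated narrowly (1.07, SE 0.32, adjusted p = 0.0307) and fell below the fold limit without control replicate 2, control replicate 3 or mutant replicate 2 (lowest value 0.81). *Hoxa4* had 80, 44.4 and 40.6 against 89.5, 235 and 90 (1.22, SE 0.48, unadjusted p = 0.0331, adjusted p = 0.0812) and was not past the threshold without the same 3 libraries in turn (lowest value 0.76) or with eBayes without trend. *Hoxd1* had 0, 7.56 and 0 against 48, 23.2 and 17.8 (3.78, SE 1.04, adjusted p = 0.0224). Only control replicate 2 had reads of *Hoxd1* among the control-labelled libraries, 8 in all. *Hoxa3* overlapped between the genotypes, with a log2 fold change of 0.90 (SE 0.73), and its span covers *Hoxa4*, *Hoxa5* and *Hoxa6* on the same strand, whose reads the counting could split.

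Several of the most abundant Hox genes of the control nerve showed little difference. *Hoxc4* had counts of 1358, 1285 and 1465 against 1446, 1417 and 1178, and its log2 fold change was -0.03 (SE 0.13). *Hoxd8* had 1697, 1568 and 1426 against 1309, 1384 and 1389, and changed by -0.20 (SE 0.11, adjusted p = 0.209). *Hoxc4* overlapped, and *Hoxd8* was the row with all mutant-labelled values lower. *Hoxa7* (-0.16, SE 0.25) and *Hoxc5* (0.06, SE 0.35) also overlapped, and the signs of *Hoxc4*, *Hoxa7* and *Hoxc5* turned under another scaling or with a library left out. *Hoxc6*, the gene with the highest level per kb, had 1114, 935 and 926 against 1179, 1856 and 1105 (0.44, SE 0.20, adjusted p = 0.126). In groups 5 to 8 the values of *Hoxb5*, *Hoxb6*, *Hoxb8 // Hoxb7*, *Hoxc8* and *Hoxa5* were separated between the genotypes. Their log2 fold changes of 0.79, 0.92, 0.60, 0.70 and 0.59 stayed under the fold limit, and those of *Hoxa5* had an adjusted p of 0.121 whereas the other 4 were at or under 0.0374. *Hoxa6* was low and overlapping (25.5, 54.8 and 15.2 against 28.4, 49.2 and 41.5).

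**Figure D3:**
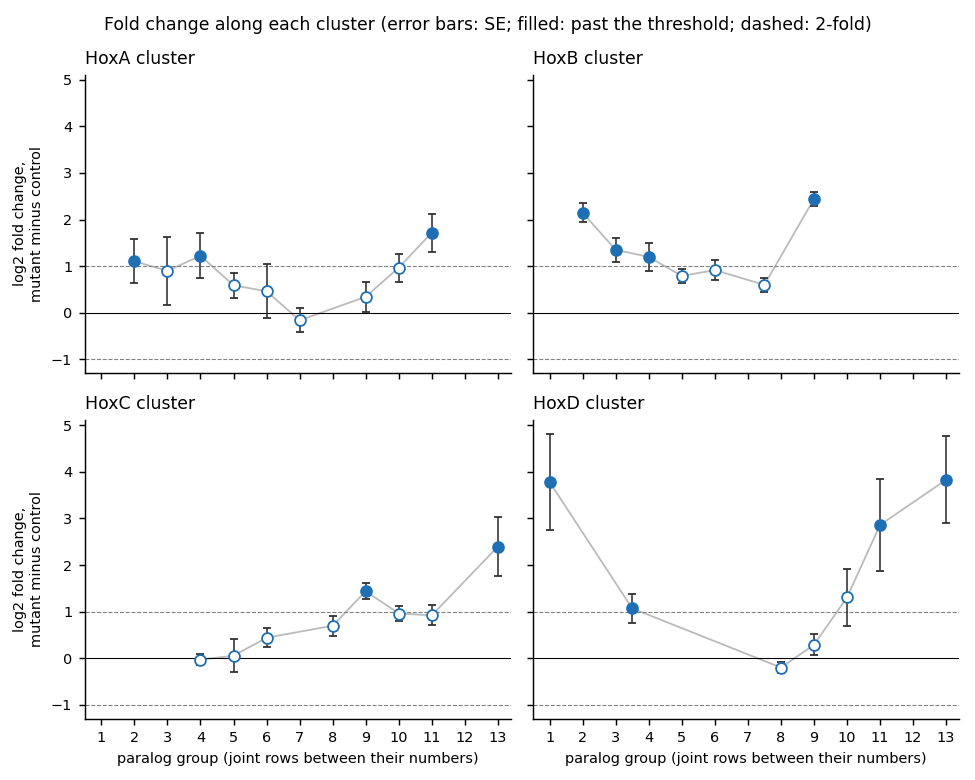
Log2 fold change (mutant-labelled minus control-labelled) by paralog group for tested rows of each cluster, with SE as error bars and filled points past the threshold. Values are lowest at *Hoxa7* (-0.16), *Hoxb8 // Hoxb7* (0.60) and *Hoxd8* (-0.20) in HoxA, HoxB and HoxD and at the *Hoxc4* end (-0.03) in HoxC. *Hoxd1*, *Hoxd11* and *Hoxd13* were tested only because of their mutant-labelled values.

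Ordered by position, the fold changes of HoxA, HoxB and HoxD were lowest in the middle of the cluster and higher toward both ends. The lowest row was *Hoxa7* in HoxA, *Hoxb8 // Hoxb7* in HoxB and *Hoxd8* in HoxD. These were the lowest rows in each of 18 other fits as well, all made on the same libraries or part of them. At the ends of HoxD, *Hoxd1*, *Hoxd11* and *Hoxd13* were tested only because of their mutant-labelled values, so they could enter only as high. The remaining HoxD rows were *Hoxd3 // Hoxd4* (1.07), *Hoxd8* (-0.20), *Hoxd9* (0.29) and *Hoxd10* (1.31). In HoxC, whose groups 1 to 3 are missing, the fold change was lowest at *Hoxc4* (in 15 of the 18, and at *Hoxc5* in the others) and highest at *Hoxc13*. The rows with lower levels had larger fold changes across genes (Spearman's rho -0.47 over 32 rows, and -0.28 over the 29 rows with a mean of at least 10 in the controls). Genes are not independent replicates, and the control level enters both measures, so this is a description only.

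The weight of the clusters in the summed count differed. HoxB made up 23, 28 and 31.6% of the summed Hox count in the control-labelled libraries and 46.3, 41.6 and 43.8% in the mutant-labelled libraries. All 7 tested HoxB rows had their mutant-labelled values above their control-labelled ones (25.9% of all tested genes), and 4 passed the threshold as higher (13.9%). The sum of HoxB was 3.09 times as high, and without *Hoxb9* it was 2.09 times as high. HoxC held 37.4% ± 0.61 of the count in the control-labelled and 30.7% ± 1.19 in the mutant-labelled libraries, and HoxD 20% ± 2.19 and 12.5% ± 0.77. The sum of HoxC was 1.59 times as high, without overlap. That of HoxD was 1.2 times as high and overlapped (2836, 2408 and 2087 against 2608, 3390 and 2763). Of the 4 HoxD rows with a mean of at least 10 in the controls, 1, *Hoxd3 // Hoxd4*, was past the threshold, and most of its control sum came from *Hoxd8*.

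**Figure D4:**
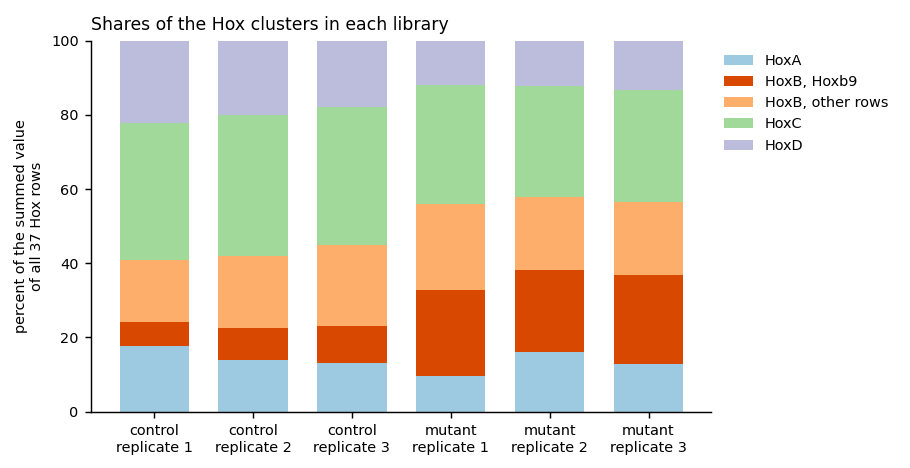
Percent of the summed normalized read count of the 37 Hox rows held by each cluster in each library, with *Hoxb9* shown apart from the other HoxB rows. *Hoxb9* takes 6.42 to 9.86% in the control-labelled and 22.1 to 24% in the mutant-labelled libraries.

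The HoxA rows varied widely among animals. Their sum was 2266, 1698 and 1542 in the control-labelled and 2136, 4476 and 2667 in the mutant-labelled libraries, so that the groups overlapped. Mutant replicate 2 was the highest mutant-labelled library in 10 of 10 tested HoxA rows, and control replicate 1 the highest control-labelled library in 8 of 10. These libraries were highest in 4 and 1 of 7 rows in HoxB, in 5 and 3 of 8 in HoxC and in 2 and 4 of 7 in HoxD. Whether the clusters differ in this was not tested. The same 2 libraries led in the markers of blood vessel wall cells (0 of 7 past the threshold in limma, edgeR and DESeq2, 1 higher at an unadjusted p under 0.05 in limma), with sums of 43160, 28472 and 22874 in the control-labelled and 26834, 66293 and 39990 in the mutant-labelled libraries. They also led in the adipocyte markers (0 of 5 past the threshold by the same tools and 0 at an unadjusted p under 0.05), with sums of 11229, 5450 and 5302 against 3173, 22961 and 4345. Endothelial markers (0 of 6 past the threshold by the same tools and 3 higher and 0 lower at an unadjusted p under 0.05) had sums of 21188, 17496 and 13911 against 19657, 26236 and 21739. The order of the 3 libraries was the same for the sums of HoxA, HoxD and these 3 marker lists in each genotype. The part of these cells in the HoxA and HoxD values was not tested. Without both libraries, 13 Hox rows were higher and 0 lower. *Hoxa2* (0.90) and *Hoxd11* (unadjusted p = 0.0851) left this set and *Hoxc11* (1.12) and *Hoxd10* (1.81) joined it, a setting that was added after the data were seen. Without mutant replicate 3, the library with the most skeletal muscle RNA, 15 rows were higher.

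Other transcripts of the 4 clusters were counted in 49 rows, of which 30 were tested, 9 were higher and 1 was lower (13.9% and 10.4% of all tested genes). The 23 with a mean of at least 10 in the controls held 6 of the higher rows (10.1% of all genes so chosen were higher) and the lower one. In edgeR and DESeq2, 6 of the 30 were higher and 1 was lower. *Gm53*, an RNA that starts upstream of *Hoxb9* on its strand, had counts of 92.2, 76.5 and 59.6 against 339, 551 and 447 (log2 fold change 2.53, SE 0.28, adjusted p = 0.000281). The row GSMG0005823, which overlaps *Gm53* and the hairpin of the miR-196a-5p printed above, changed by 1.86 (SE 0.58, adjusted p = 0.0381). *Hoxb9* and these neighbors rose in the same stretch of chromosome 11. A row without symbol on the strand opposite to *Hoxb9* was also past the threshold with few reads (15.5, 0 and 0 against 49.5, 13.51 and 19.8), which overlapped, and was not past it in edgeR and DESeq2.

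*Hoxb3os*, a long non-coding RNA on the strand opposite to *Hoxb3* and *Hoxb2*, was the only one of these transcripts past the threshold as lower. Others with a change below 0 were not past it. The counts of *Hoxb3os* were 446, 635 and 767 in the control-labelled and 340, 315 and 225 in the mutant-labelled libraries (log2 fold change -1.06, SE 0.25, adjusted p = 0.0121). It overlaps both genes, which rose, and the libraries were made from oriented cDNA, but whether the counting used the strand is not given in the sources used here. A row on the same strand within *Hoxb3*, without a symbol, changed by 1.16 (SE 0.42, adjusted p = 0.0651).

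In HoxC, *Gm36878*, which runs opposite to *Hoxc9* and *Hoxc10*, had counts of 637, 746 and 606 against 1923, 1821 and 1587 (log2 fold change 1.42, SE 0.14, adjusted p = 0.000132). Its change was of the size of that of *Hoxc9* (1.44), with which it shares bases on the opposite strand. *Hotair*, an RNA studied as a partner of Polycomb proteins, had 141, 102 and 77.3 against 198, 212 and 216, at the fold limit with 1.001 on the log2 scale (SE 0.29, adjusted p = 0.0264), and missed it in edgeR and DESeq2. In HoxD, *Haglr*, opposite to *Hoxd1*, had 6.66, 14.2 and 17.7 against 132, 121 and 64.3 (2.97, SE 0.54, adjusted p = 0.00346). GSMG0067106, which overlaps *Haglr*, had 0 reads in the control-labelled libraries and was at least 5.12-fold higher, and a row without symbol within *Hoxd3 // Hoxd4* had 6.66, 0 and 0 against 14.5, 23.2 and 7.91 and was not past the threshold in edgeR and DESeq2. Of the 7 other HoxA transcripts tested, 0 were past the threshold in limma, edgeR and DESeq2, and 0 had an unadjusted p under 0.05 in limma.

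**Figure D5:**
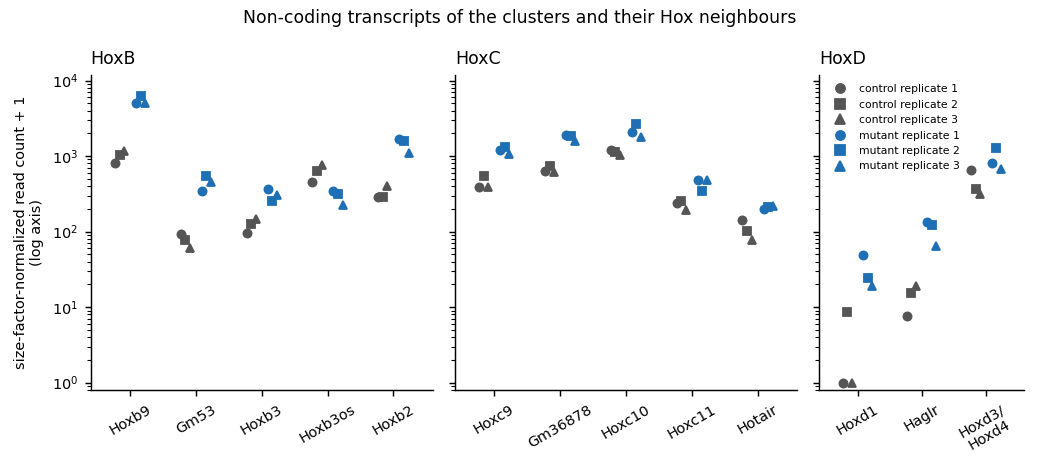
Normalized read count plus 1 (log axis) of non-coding transcripts of HoxB, HoxC and HoxD beside Hox genes of the same region, in 3 control-labelled (gray) and 3 mutant-labelled (blue) libraries. *Gm53*, *Gm36878*, *Hotair* and *Haglr* lie higher in the mutant-labelled libraries, and *Hoxb3os* lies lower (616 against 293 on average) beside *Hoxb3* and *Hoxb2*, which lie higher.

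Hox proteins bind DNA with cofactors of the TALE family, and 3 of the 9 TALE genes were higher (13.9% of all tested genes) and 0 lower (1 lower at an unadjusted p under 0.05 in limma, 0 past the threshold in edgeR and DESeq2). *Pknox2* changed by 1.05 (adjusted p = 0.00182), *Meis2* by 1.004 (adjusted p = 0.00906) and *Pbx4* by 1.16 (adjusted p = 0.0502) on the log2 scale. The values of *Pbx4* overlapped (147, 218 and 141 against 543, 479 and 195), and those of the other two did not. The most abundant, *Pbx2*, was at -0.28 (adjusted p = 0.0662). When the libraries were scaled to the same 75th percentile 1 of the 9 passed, and leaving out control replicate 1 or 3 or mutant replicate 1 or 2 also left 1.

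Hox clusters are kept silent by Polycomb and open by trithorax proteins. Of 35 such genes, 1 was higher and 0 lower, against 13.9% and 10.4% of all tested genes (by limma, edgeR and DESeq2, with 12 higher and 8 lower at an unadjusted p under 0.05 in limma, and 2 to 3 past the threshold in either direction without control replicate 1 or 3 or any 1 of the mutant replicates). The gene was *Pcgf5*, a ring finger partner in a variant Polycomb complex, with counts of 364, 301 and 343 against 1681, 1298 and 1474 (log2 fold change 2.13, SE 0.15, adjusted p = 3.23e-05). Its values were separated widely. *Cbx2*, a Polycomb subunit known for its effect on Hox patterning, had counts of 2139, 2082 and 2006 against 1175, 1034 and 918 and missed the fold limit at -0.9998 (SE 0.12, adjusted p = 0.000481). *Eed*, a core subunit of the complex that methylates histone H3, missed it in the other direction at 0.98 (SE 0.13, adjusted p = 0.000633), as did *Phc3* (0.97, adjusted p = 0.00769) and *Cbx7* (0.87, adjusted p = 0.0097), and none of these 4 overlapped between the genotypes. The most abundant member, the histone chaperone *Rbbp4*, was at -0.28 (adjusted p = 0.0516).

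Retinoic acid turns on the 3′ ends of the clusters in the embryo, and 7 of 18 genes of its synthesis, breakdown and reception were higher and 1 was lower (13.9% and 10.4% of all tested genes). Of the 16 with a mean of at least 10 in the controls, which leaves out *Cyp26a1* and *Cyp26c1*, 5 were higher (10.1% of all genes so chosen) and 1 was lower. The synthesis genes *Aldh1a2* (log2 fold change 1.54, adjusted p = 0.00186), *Rdh10* (1.23, adjusted p = 0.000606) and the joint row *E030003E18Rik // Aldh1a1* (2.86, adjusted p = 0.00018) rose. So did the genes of the degrading enzymes *Cyp26a1* (3.41), *Cyp26b1* (1.34) and *Cyp26c1* (3.40), at adjusted p values of 0.0313, 0.0343 and 0.0401, from low counts, and *Cyp26c1* was not past the threshold in edgeR. The receptor gene *Rara* was higher (1829 ± 59.2 against 4178 ± 584, adjusted p = 0.00018) and *Rxrg*, a receptor gene expressed in SCs, was lower (1030 ± 123 against 232 ± 49, log2 fold change -2.16, adjusted p = 0.000122).

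Among regulators upstream of the clusters and genes beside them, 5 of 15 tested were higher and 1 was lower, against 13.9% and 10.4% of all tested genes (3 in all past the threshold without control replicate 3 or mutant replicate 3). Besides *Hotair*, *Haglr* and *Hoxb3os*, these were *Gdf11* (1.06, adjusted p = 0.000396), a signal that sets the onset of the posterior groups, *Cdx1* (0 reads in the control-labelled libraries, adjusted p = 0.00519), a caudal factor that activates Hox genes, and *Skap1* beside HoxB (1.48, adjusted p = 0.11). *Cdx1* entered the test only because of its mutant-labelled values. Of the 12 genes of this list with a mean of at least 10 in the controls, 4 were higher (10.1% of all genes so chosen) and 1 was lower. By edgeR and DESeq2, 3 of the 15 were higher and 1 was lower. *Hotair*, *Haglr* and *Hoxb3os* are also counted among the other transcripts of the clusters above. *Skap1* overlapped between the genotypes (22.2, 9.45 and 7.6 against 20.4, 56 and 36.6) and, like *Hotair*, was not past the threshold in edgeR and DESeq2. Of 16 genes of limb type and limb axes, 5 were higher and 0 lower by limma, edgeR and DESeq2, against 13.9% and 10.4% of all tested genes in limma (1 lower at an unadjusted p under 0.05 in limma, with 8 past the threshold without control replicate 1 and 3 without control replicate 3). *Pitx1*, the hindlimb determinant, had 353, 232 and 205 against 575, 527 and 534 (1.08, adjusted p = 0.00666), and *Prrx1*, a gene of limb mesenchyme and the most abundant of the list over all libraries, had 5115, 3605 and 3309 against 7814, 9915 and 9225 (1.18, adjusted p = 0.00104). *Tbx2*, the most abundant in the controls, had 5064, 6784 and 6999 against 4978, 3162 and 3355 and was under the fold limit at -0.73 (adjusted p = 0.0191). *Tbx3* (1.16, adjusted p = 0.0164), *En1* (1.33, adjusted p = 0.0305) and *Isl1* (3.09, adjusted p = 0.0245), which is also a neuron marker, completed them. *Tbx4*, a hindlimb gene, was at 0.52 (adjusted p = 0.424), and *Tbx5*, a forelimb gene, at 0.90 (adjusted p = 0.284) from counts of 9.45 to 13.3 in the controls.

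The 5 untested rows had too few reads. *Hoxd12* had 0 reads in all libraries, which allows up to 3 reads in each. *Hoxb13* had 16 reads in mutant replicate 1 and 0 elsewhere. *Hoxa13* had 0 reads in the control-labelled libraries and 0, 13 and 6 in the mutant-labelled ones, *Hoxc12* had 4, 0 and 0 against 24, 5 and 2, and *Hoxb1* had at most 6 reads in a library. They belong to the extreme ends of the clusters, where levels in the control nerve were lowest.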

How the data were processed

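The authors sequenced oriented cDNA of poly-A RNA, mapped the reads to mm10 with STAR 2.4.0, counted them on constitutive regions of genes and deposited 1 signal per gene and library, a count divided by a DESeq2 size factor. In each library 1 read stood for a value of 0.727 to 1.27, and 100% of the values were whole multiples of it, within 0.05. These recovered reads were used for edgeR and DESeq2. Groups and replicate numbers come from the labels, and each library is from another animal. limma (lmFit, then eBayes with trend) was fitted to log2(value + 1) for all 25802 genes with a mean of at least 10 in a genotype, and p-values were adjusted over these by the Benjamini-Hochberg method. Errors are SDs over 3 libraries or limma's standard errors. The exon length of all 37 Hox rows came from GENCODE M21. The members and lists were chosen with earlier results of these data known. Named are all Hox rows, *Adar*, other transcripts of the clusters past the threshold and, of each of 5 lists, the members past the threshold and the most abundant member, besides *Cbx2*, *Eed*, *Phc3*, *Cbx7*, *Col1a1*, *Col1a2*, *Tbx2*, *Tbx4*, *Tbx5*, *Sox10* and 2 microRNA hairpins, picked after their values were seen. All 13 marker lists are given. Alternatives were a pseudocount of 0.1 or 10, a minimum mean of 50 or none, other scalings, eBayes without trend, edgeR, DESeq2, a replicate block, an adjusted p at or under 0.05 and leaving out libraries. Scripts were tested on simulated data. R 4.3.3 with limma 3.58.1, edgeR 4.0.16 and DESeq2 1.42.0 and Python 3.11.15 were used. Single-gene values of 2 genes and 1 paralog group sum are not reported here, but totals and counts include them.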

Additional observations from a re-analysis of the deposited data

How the results depend on the processing

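Across 12 other settings, the count of higher Hox rows lay between 10 and 18 and that of lower rows at 0. Leaving out 1 of the 6 libraries at a time, it lay between 10 and 17 and at 0. The 18 came from scaling to the same total, which moved the median change over all genes from 0.03 to 0.19 on the log2 scale and that of the Hox rows from 0.94 to 1.11. A minimum mean of 50 gave 10, because *Hoxd1*, *Hoxd11* and *Hoxd13* were not tested there, and an adjusted p at or under 0.05 gave 10. *Hoxa2*, *Hoxa4*, *Hoxd11* and *Hoxd3 // Hoxd4* were the called rows that were tested but missed the threshold under some setting. *Hoxa3*, *Hoxa10*, *Hoxb6*, *Hoxc10*, *Hoxc11* and *Hoxd10* were among the other rows that passed it under some. Near 0, the sign turned for *Hoxc4* (0.14 with the same total, and -0.082 to 0.066 with libraries left out), *Hoxa7* (0.0018 with the same total, and -0.52 to 0.0030 with libraries left out) and *Hoxc5* (-0.011 with the same 75th percentile, and -0.17 to 0.22 with libraries left out), where the -0.52 and -0.17 are without both control replicate 1 and mutant replicate 2. Polycomb and trithorax genes past the threshold numbered 2 at a pseudocount of 0.1, 4 with the same total and 2 with the same 75th percentile, where TALE genes numbered 1 and upstream and neighboring genes 3. Leaving out a library gave 1 to 3 TALE, 1 to 3 Polycomb and trithorax, 3 to 7 upstream and neighboring and 3 to 8 limb genes. The cause was not tested. Same-numbered libraries did not deviate together (correlations of their deviations -0.0619, -0.0555 and 0.0089). This cannot exclude a shared litter or day of collection, which the labels do not give, and same-numbered animals have neighboring codes in the labels. With a replicate block 13 Hox rows were higher and 0 lower and 6149 genes passed in all. Rows with few reads (*Hoxd1*, *Hoxd11*, *Hoxd13*) are the least precise.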
